A study of Homo sapiens with 3 samples.

Results

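The receptor for the cytokine TWEAK, TNFRSF12A (also called FN14), is described here together with 9 other genes of the tumour necrosis factor (TNF) ligand and receptor families: the ligand gene TNFSF12, which encodes TWEAK, and the receptor genes TNFRSF1A, TNFRSF1B, TNFRSF10A, TNFRSF10B, TNFRSF10D, TNFRSF19, TNFRSF21 and LTBR. These 10 genes were chosen by name, with earlier results of the same arrays known, so their differences are given as a description and not as a test. A probe set (the group of array probes summarised into 1 value) was used where the platform annotation gave it a single gene symbol, and the one with the highest mean was to stand for a gene that had several. Of the 10 genes, 8 had such a probe set, 1 each, out of 22395 genes on the arrays. The probe set of TNFSF12 also names TNFSF13 and a read-through transcript, and that of TNFRSF1B also names a microRNA gene, so neither has a value of its own.

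The study put 3 lentiviral constructs into HEK293T, an established line of human embryonic kidney cells (spelled HEK239T in one label field): pCDF1 with the TRAF7 G536S mutant, pCDF1 with wild-type TRAF7, and the empty pCDF1 vector. Cells with stable expression were selected in puromycin and grew unsynchronised in serum, and all groups share the vector and the selection. TRAF7 is a RING-type ubiquitin ligase whose C-terminal WD40 repeats hold the substituted glycine. Each group has 1 array and no replicate, so no p-value or standard error can be given, and the constructs cannot be told apart from the cultures, extractions and arrays. Whether each line was a pool or a clone is not given in the sources used here.

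TNF receptors are cell-surface proteins that take up ligands of the TNF family and pass the signal to adaptor proteins. Members with a death domain (TNFRSF1A, TNFRSF10A, TNFRSF10B, TNFRSF21) can recruit FADD or TRADD and start cell death or NF-kB signalling, while members without one (TNFRSF12A, TNFRSF1B, TNFRSF19, LTBR) bind TRAF adaptors directly. TNFRSF12A has a short cytoplasmic tail with a TRAF-binding site, and its transcript is known to be induced by growth factors and serum as well as by tissue injury. TRAF7 differs from other TRAF proteins in having WD40 repeats in place of the domain by which the others bind receptors.

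All values are log2 intensities per probe set as the authors deposited them, and a difference is one array's log2 value minus another's. The 3 arrays had medians of 1.01 (G536S), 1.02 (wild type) and 1.04 (empty vector) and 75th percentiles of 1.86, 1.85 and 1.73, so the empty vector array had the lowest 75th percentile, although its top value, 12.6, was the highest (12.1 with G536S and 12.4 with wild type). A mean level of 1.21, the median of all gene means, served as the filter on low values; it was passed by 11198 genes. The probe set of TRAF7 read 7.35 in the G536S array, 8.11 in the wild-type one and 5.66 in the empty vector one. Both lines labelled as carrying TRAF7 were thus higher than the empty vector. For G536S minus wild type it differed by -0.76, or 1.69-fold lower. In that comparison the TRAF7 level and the substitution cannot be told apart. Of 7 genes listed for the HEK293 line, 5 passed the filter, among them NEFL, VIM and LIN28B, while KRT8 and NEFM did not. KRT18, also among the 5, was near background at 1.18 with G536S, 1.20 with wild type and 1.26 with empty vector. It passed only through the empty vector array. Markers of other cells were mostly below it, with 2 of 5 leukocyte genes past the filter (CD68 and CD79A), 0 of 3 measured endothelial genes, 1 of 4 fibroblast genes (COL1A1) and 1 of 4 kidney tubule genes (LRP2). The leukocyte marker PTPRC read 0.83, 0.84 and 0.95 in the G536S, wild-type and empty vector arrays.

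TNFRSF12A stood at 3.63 with the G536S construct, at 5.19 with the wild-type construct and at 3.01 with the empty vector. The wild-type array was thus well above both others, which lay closer to each other. Wild type exceeded the empty vector by 2.18, or 4.54-fold. This was rank 5 from the top among the 11198 genes past the filter. G536S was higher than the empty vector by 0.62, or 1.54-fold, at rank 562. Set directly against wild type, G536S differed by -1.56, or 2.95-fold lower, at rank 7 from the bottom. Rank 5 and rank 7 both rest on the 1 wild-type array, so they are not separate results. All 3 values lie above the filter level, so the gene did not enter through 1 array alone. In RNA from whole cultures, more transcript per cell and more cells with the transcript cannot be told apart.

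**Figure D1:**
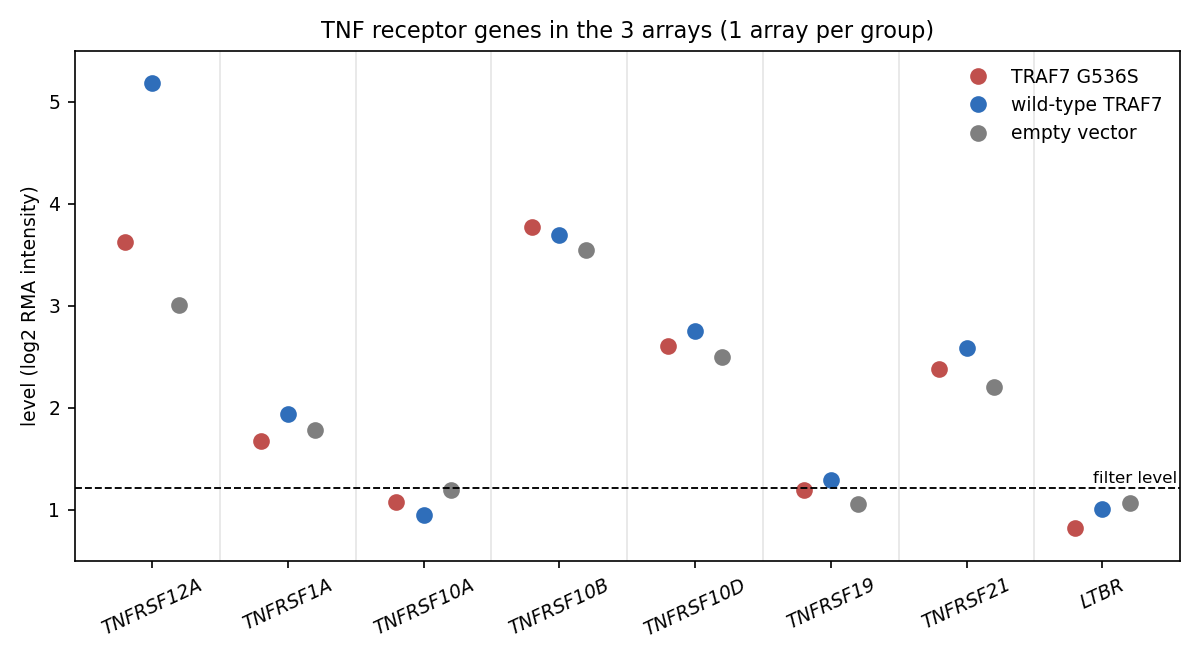
Level of the 8 measured TNF receptor genes (horizontal axis) as log2 RMA intensity (vertical axis), 1 point per array: TRAF7 G536S (red), wild-type TRAF7 (blue) and empty vector (grey), with the filter level of 1.21 as a dashed line. The wild-type point of TNFRSF12A, at 5.19, stands apart from its other two points at 3.63 and 3.01, while the 3 points of each other gene lie within 0.38 of each other; heights of different genes are from different probes and are not to be compared.

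TNFRSF1A, the main receptor for TNF itself and present on most cells, read 1.68 with G536S, 1.94 with wild type and 1.78 with empty vector. Its 3 values spanned 0.27, with wild type the highest. Wild type minus empty vector was 0.16, and G536S minus empty vector was -0.10.

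TNFRSF10B, a death receptor for TRAIL (also called DR5), read 3.78 with G536S, 3.70 with wild type and 3.55 with empty vector. Both constructs were above the empty vector, by 0.23 (G536S) and 0.14 (wild type), and the 2 constructs differed by 0.08. TNFRSF10D, a TRAIL receptor with a truncated death domain that acts as a decoy, read 2.61, 2.76 and 2.50 in the same order of arrays. TNFRSF10A, the other TRAIL death receptor (DR4), lay below the filter at 1.08, 0.95 and 1.19. For wild type minus empty vector it differed by -0.24, against 0.14 for TNFRSF10B and 0.26 for TNFRSF10D. These values are within the robust spread of all genes past the filter in that comparison (0.27, an SD from the median absolute deviation), so no direction is read from them. With 1 array per group these small differences are uncertain. TRAIL receptors also resemble each other in sequence, and whether probes of one bound transcripts of another was not tested.

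TNFRSF21 (DR6), a death-domain receptor best known in neurons and lymphocytes, read 2.38 with G536S, 2.59 with wild type and 2.20 with empty vector. After TNFRSF12A it had the widest range of the 8 genes, 0.38, which is wild type minus empty vector (1.30-fold). TNFRSF19 (TROY), a receptor without a death domain that is known from embryonic skin and the nervous system, read 1.19, 1.29 and 1.06, around the filter level. LTBR, which binds lymphotoxin and leads into the non-canonical NF-kB route, read 0.82, 1.01 and 1.07, all below the filter level. Its lowest value, in the G536S array, was under the 25th percentile of all values, 0.86.

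At least 1.5-fold higher with wild type than with the empty vector was 1 of the 8 measured genes, TNFRSF12A, and 0 were as far below. In this comparison 2.73% of all 22395 genes lay that far above 0 and 0.911% that far below, and of the genes past the filter 5.42% and 1.79% did. With G536S against the empty vector the counts were again 1 higher, TNFRSF12A, and 0 lower, beside 3.05% and 1.07% of all genes and 6.07% and 2.08% of those past the filter. For G536S against wild type, 0 were higher and 1, TNFRSF12A, was lower, beside 1.11% and 0.929% of all genes and 2.17% and 1.81% of those past the filter. The genes were chosen with these comparisons known, so nothing is read from the counts. The call in G536S against the empty vector was lost under another scaling: TNFRSF12A then differed by 0.46 after quantile normalization and by 0.49 after cyclic loess, both below the 0.58 that 1.5-fold requires.

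Without TNFRSF12A, the other 7 genes ranged from -0.24 to 0.38 (median 0.16) for wild type minus empty vector, from -0.25 to 0.23 (median 0.11) for G536S minus empty vector, and from -0.27 to 0.13 (median -0.15) for G536S minus wild type. The medians over all genes were -0.000749, -0.00472 and -0.00334 in those comparisons. Over the genes past the filter they were 0.08, 0.10 and 0.01. The first pair of comparisons shares the empty vector array. Quantile normalization moved the median of genes past the filter by -0.10 in the first comparison and by -0.12 in the second. After it TNFRSF10D stood at -0.05 for G536S minus empty vector and TNFRSF10B at 0.01 for wild type minus empty vector, whereas TNFRSF19, at 0.25 for wild type minus empty vector, was no lower than before.

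**Figure D2:**
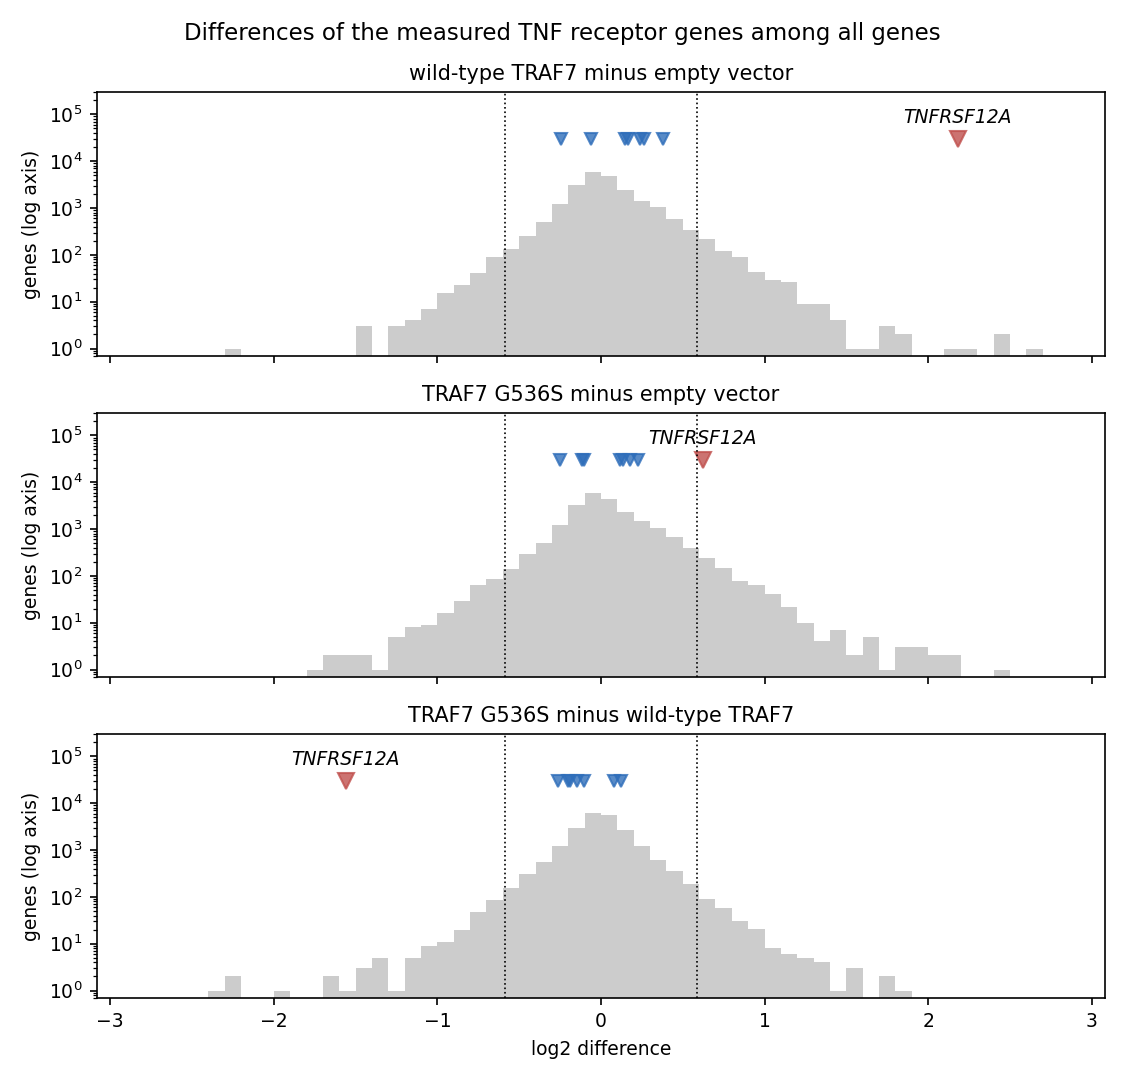
Log2 differences (horizontal axis) in the 3 comparisons, with all 22395 genes as grey histograms (vertical axis, number of genes on a log scale), TNFRSF12A as a red triangle and the other 7 measured receptors as blue triangles; dotted lines mark 1.5-fold. TNFRSF12A lies at 2.18, 0.62 and -1.56, and the other receptors lie between -0.27 and 0.38 throughout.

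By order of the arrays, 5 of the 8 genes were highest with wild type (TNFRSF12A, TNFRSF1A, TNFRSF10D, TNFRSF19 and TNFRSF21), against 31.5% of all genes and 36.1% of those past the filter. The order wild type, then G536S, then empty vector was shown by 4 of them, TNFRSF1A being the exception, against 17.1% of all genes and 23.9% of those past the filter. After quantile normalization or cyclic loess this order was shown by 3, without TNFRSF10D. With 1 array per group, an order among values this close carries no error estimate.

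TNFRSF12A lies on chromosome 16, as does TRAF7. To see whether its surroundings moved with it, the 5 nearest genes with a value on each side were read, a set picked after the result for TNFRSF12A was known. Of these 10, 4 passed the filter: PAQR4, PKMYT1, HCFC1R1 and THOC6. The others had means below it, where a change is hard to see. For wild type minus empty vector the 10 ranged from -0.86 to 0.08. The lowest was HCFC1R1, the next gene in that order, which read 3.98 with G536S, 3.73 with wild type and 4.59 with empty vector. It was the only one of the 10 at least 1.5-fold apart in that comparison, and it lay on the other side of 0 from TNFRSF12A. In that comparison 0.911% of all genes and 1.79% of those past the filter were that far below. For G536S minus empty vector the 10 ranged from -0.61 to 0.15. HCFC1R1 was again the only one called, beside 1.07% and 2.08% that far below. Over the alternatives it came as near to 0 as -0.580, just under 1.5-fold. For G536S minus wild type the 10 ranged from -0.08 to 0.28.

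The genes whose 3 values ran most like those of TNFRSF12A were then listed. Each gene's values were centred on its own mean over the 3 arrays. The Euclidean distance to TNFRSF12A was then taken for the other 11197 genes past the filter. Small RNAs, genes with placeholder symbols (such as LOC, LINC or C1orf) and olfactory receptor genes were left out when the nearest 10 were named. With 3 arrays the distance is a coarse measure of likeness, and the listed genes are high with wild type because they were selected to be. Nearest was ZNF492, a zinc finger gene (distance 0.23), at 2.26 with G536S, 3.74 with wild type and 1.87 with empty vector. JUN, an AP-1 subunit, followed at 0.28, ANXA1, an annexin that binds membranes, at 0.30 and RHOB, a small GTPase of endosomes, at 0.49. The next 6 were SOX7 (0.63), a transcription factor, SAP30L (0.64), of a histone deacetylase complex, CREB5 (0.66), a partner of JUN in AP-1, EMP3 (0.67), a membrane protein, TC2N (0.67) and CRABP2 (0.68), a carrier of retinoic acid. Of the receptors described here, TNFRSF21 came nearest, at a distance of 1.33 and rank 1232.

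JUN read 4.98 with G536S, 6.91 with wild type and 4.66 with empty vector, and ANXA1 read 1.91, 3.54 and 1.69. For both, as for TNFRSF12A, G536S lay nearer to the empty vector than to wild type. TC2N had the highest G536S value relative to its own mean of the 10: its wild-type value exceeded that of the empty vector by 1.73 and its G536S value exceeded it by 1.12.

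**Figure D3:**
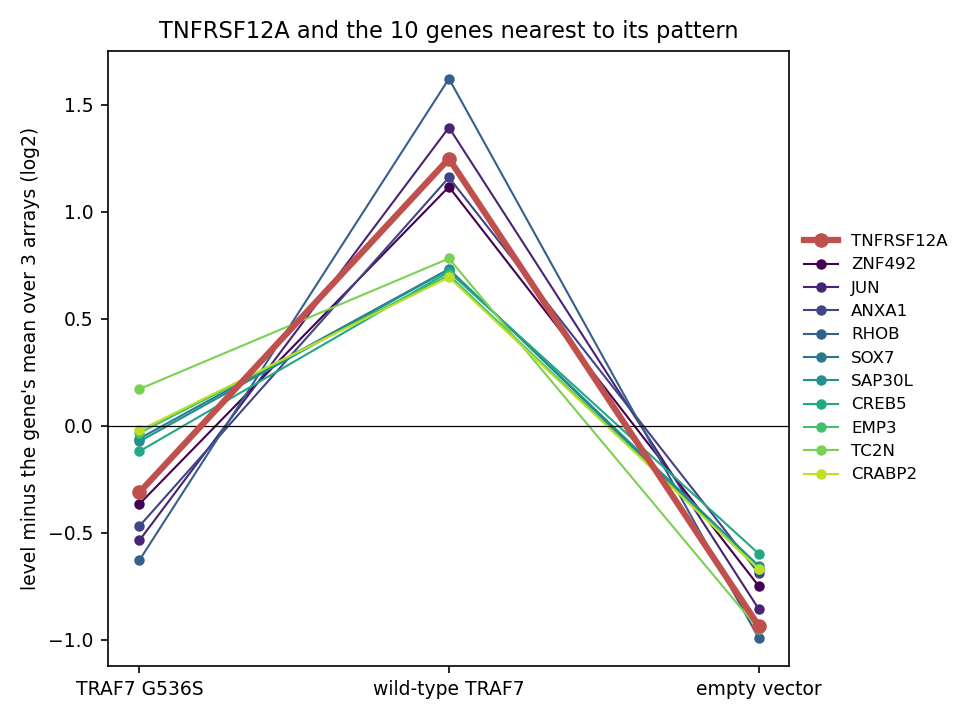
Level of TNFRSF12A (thick red) and of the 10 genes nearest to it (thin lines) in the TRAF7 G536S, wild-type TRAF7 and empty vector arrays, as log2 level minus each gene's mean over the 3 arrays (vertical axis). ZNF492, JUN, ANXA1 and RHOB run close to TNFRSF12A, and the other 6 have lower wild-type peaks; lines only join the values of a gene.

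Promoter sequence from RefSeq (GRCh38.p14, a window from 250 bases before to 50 bases after a gene's start) was matched for 5 of the 10 genes described here (TNFRSF1A, TNFRSF1B, TNFRSF19, TNFRSF21 and LTBR, of which TNFRSF1B has no expression value here), in 6 windows, and for 9 of the 10 genes nearest to TNFRSF12A, in 13 windows. TNFRSF12A, TNFSF12, TNFRSF10A, TNFRSF10B and TNFRSF10D promoters were not analysed here. Both strands were searched for AP-1 (TGANTCA), CRE (TGACGTCA), TEAD (GGAATG), NF-kB and CArG box motifs. These occur in 7.71%, 1.85%, 14.0%, 11.3% and 1.29% of all 35116 windows. Of the 6 windows of those 5 receptor genes, 1 held an NF-kB match, in the second window of TNFRSF19, and 0 held any of the other motifs. Of the 13 windows of the nearest genes, 1 held an AP-1 match and a TEAD match (the third window of CREB5) and 1 an NF-kB match (TC2N). A match in a window is no evidence of binding, and a window without one says only that these letters are not in it.

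The 250 bases before the start are printed for 4 windows: the TNFRSF19 window because it holds the single match of the receptor genes searched, TNFRSF21 because it had the widest range after TNFRSF12A, and JUN and CREB5 as AP-1 genes among the 10 nearest to TNFRSF12A. They lie at chr13:23579110-23579359 on the plus strand, chr6:47309906-47310155 on the minus strand, chr1:58784048-58784297 on the minus strand and chr7:28685883-28686132 on the plus strand. Capitals mark a motif match, NF-kB in TNFRSF19 and AP-1 in CREB5 (its TEAD match lies after the start and is not printed), and each sequence runs 5′ to 3′ on the gene's strand.
TNFRSF19: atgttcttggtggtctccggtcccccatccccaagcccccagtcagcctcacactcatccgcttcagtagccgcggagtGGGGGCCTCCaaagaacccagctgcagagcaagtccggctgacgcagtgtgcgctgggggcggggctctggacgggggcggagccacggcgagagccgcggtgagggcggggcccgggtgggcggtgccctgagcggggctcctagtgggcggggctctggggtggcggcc
TNFRSF21: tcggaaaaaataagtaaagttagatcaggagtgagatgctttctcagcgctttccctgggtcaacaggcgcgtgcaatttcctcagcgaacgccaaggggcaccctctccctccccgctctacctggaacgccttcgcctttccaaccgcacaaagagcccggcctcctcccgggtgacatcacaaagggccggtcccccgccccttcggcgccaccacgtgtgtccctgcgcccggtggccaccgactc
JUN: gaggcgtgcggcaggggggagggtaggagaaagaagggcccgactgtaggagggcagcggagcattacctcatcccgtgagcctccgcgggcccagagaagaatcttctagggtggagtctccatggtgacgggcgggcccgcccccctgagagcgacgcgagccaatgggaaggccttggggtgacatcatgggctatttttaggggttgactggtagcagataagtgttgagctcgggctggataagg
CREB5: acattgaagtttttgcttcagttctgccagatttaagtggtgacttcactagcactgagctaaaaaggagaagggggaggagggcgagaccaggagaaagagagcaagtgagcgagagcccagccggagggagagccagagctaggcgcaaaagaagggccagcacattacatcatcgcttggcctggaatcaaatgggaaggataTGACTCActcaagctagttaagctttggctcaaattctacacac

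The rest of the pathway was read in 7 lists of 139 distinct genes, of which 125 had a value and 62 passed the filter. At least 1.5-fold apart in either direction were 3.64% of all genes for wild type minus empty vector. The shares were 4.12% for G536S minus empty vector and 2.04% for G536S minus wild type. In lists this short a count of 0 is near those shares and is not read as an unchanged pathway. Beyond the genes described above, 17 of 20 other TNF receptor genes were measured and 5 passed the filter. None was at least 1.5-fold apart from the empty vector with either construct (0 of 17 each time), beside 3.64% (wild type) and 4.12% (G536S) of all genes. EDA2R, a receptor for the A2 form of ectodysplasin, read 2.64 with G536S, 1.97 with wild type and 2.05 with empty vector. It was high in the mutant array alone, at least 1.5-fold above wild type (0.66, 1.58-fold) and just under that above the empty vector (0.58, with a range of 0.43 to 0.62 over the alternatives). The list median was -0.05 both for wild type minus empty vector and for G536S minus empty vector, and 0.02 for G536S minus wild type.

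Ligands were near background. Of 15 measured genes of other TNF ligands 0 were 1.5-fold apart in any comparison, beside 3.64%, 4.12% and 2.04% of all genes. Of these 15 ligand genes, 1 passed the filter. That gene, EDA, which encodes ectodysplasin, read 1.36 with G536S, 1.72 with wild type and 1.49 with empty vector. TNF itself read 0.97, 1.03 and 1.06.

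Adaptors and the first signalling steps were well represented, with 25 of 29 genes measured and 20 past the filter. In each of the 3 comparisons 0 were at least 1.5-fold apart. Beside this stand 3.64%, 4.12% and 2.04% of all genes and 7.22%, 8.15% and 3.98% of those past the filter. In the same order, the medians were 0.04 for wild type minus empty vector, 0.03 for G536S minus empty vector and -0.03 for G536S minus wild type. The farthest apart was CYLD, a deubiquitinase that restrains NF-kB signalling, at 2.79 with G536S, 3.36 with wild type and 2.83 with empty vector. Wild type was the highest for CYLD, with G536S and the empty vector close together. MAP3K3, the kinase MEKK3 to which TRAF7 binds, read 3.81, 3.55 and 3.74.

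Of the NF-kB subunits and inhibitors all 9 were measured and 7 passed the filter. In the 3 comparisons 0 were at least 1.5-fold apart, beside 3.64%, 4.12% and 2.04% of all genes. The medians were 0.06, -0.05 and -0.08. NFKBIB, an inhibitor, was the farthest apart, at 3.70 with G536S, 4.14 with wild type and 4.05 with empty vector. Of 25 measured genes that TNF or TWEAK can induce, such as CXCL8, CCL2 and ICAM1, 4 passed the filter and 0 were 1.5-fold apart. Among all genes past the filter 7.22%, 8.15% and 3.98% were that far apart in the 3 comparisons, so 0 of 4 says little. The others of this list had means below the filter, so no absence of a response is read from them. NFKBIA, the inhibitor that NF-kB itself induces, read 3.62 with G536S, 3.50 with wild type and 3.21 with empty vector, the widest range of those 4 genes. The medians of this list were -0.06, -0.06 and -0.03.

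Receptor shedding and TWEAK processing genes were all measured (7 of 7), and 6 passed the filter. TIMP3, an inhibitor of the sheddase ADAM17, read 4.06 with G536S, 4.76 with wild type and 4.23 with empty vector. TIMP1, a related inhibitor of metalloproteinases, read 6.35, 6.95 and 6.63. Both were at least 1.5-fold lower with G536S than with wild type, by -0.70 and -0.60. In that comparison 0.929% of all genes and 1.81% of those past the filter were that far below. With either construct, 0 genes of the list were 1.5-fold apart from the empty vector, beside 3.64% (wild type) and 4.12% (G536S) of all genes. ADAM17 itself read 4.75, 4.93 and 4.63, and FURIN, a protease that cleaves the TWEAK precursor, 4.06, 3.85 and 3.87. The medians were 0.30 for wild type minus empty vector, -0.07 for G536S minus empty vector and -0.16 for G536S minus wild type.

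Genes that growth factors and serum induce, the class to which TNFRSF12A also belongs, were read last. Of 32 measured, 22 passed the filter. At least 1.5-fold higher with wild type than with the empty vector were 8 (RHOB, JUN, DUSP1, TNC, FOSL1, KLF6, ATF3 and CCN1) and 0 were lower, with a list median of -0.02. Over all genes 2.73% were that far above and 0.911% that far below, and over those past the filter 5.42% and 1.79%. CCN1, at 0.60, was under the threshold after another scaling (0.54 at its lowest). With G536S against the empty vector 1 was higher, ATF3, and 2 were lower, DUSP1 and MYC, with a median of -0.07, beside 6.07% and 2.08% of genes past the filter. With G536S against wild type 0 were higher and 6 were lower: DUSP1, RHOB, JUN, TNC, KLF6 and FOSL1, with a median of -0.11, beside 2.17% and 1.81% of genes past the filter. These 6 are all among the 8 above, and both counts rest on the 1 wild-type array. Most of the list thus lay near 0 in each comparison and a minority carried the large values.

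FOSL1, an AP-1 subunit, read 1.62 with G536S, 2.29 with wild type and 1.38 with empty vector, and KLF6, a zinc finger factor, read 3.52, 4.52 and 3.69. TNC, which encodes the matrix protein tenascin-C, read 1.49, 2.98 and 1.92. In these 3 genes the wild-type array was the highest, as for TNFRSF12A. Other AP-1 genes did not share this. FOS (below the filter), FOSB and JUNB differed by -0.05, -0.08 and -0.12 for wild type minus empty vector. ATF3, a stress-induced factor, was high with both constructs instead, at 2.06 with G536S, 2.03 with wild type and 1.28 with empty vector. MYC, a growth regulator, read 5.58, 6.16 and 6.37, lowest with G536S. The list was put together with earlier results of these arrays known, so its counts are not independent evidence of a direction.

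**Figure D4:**
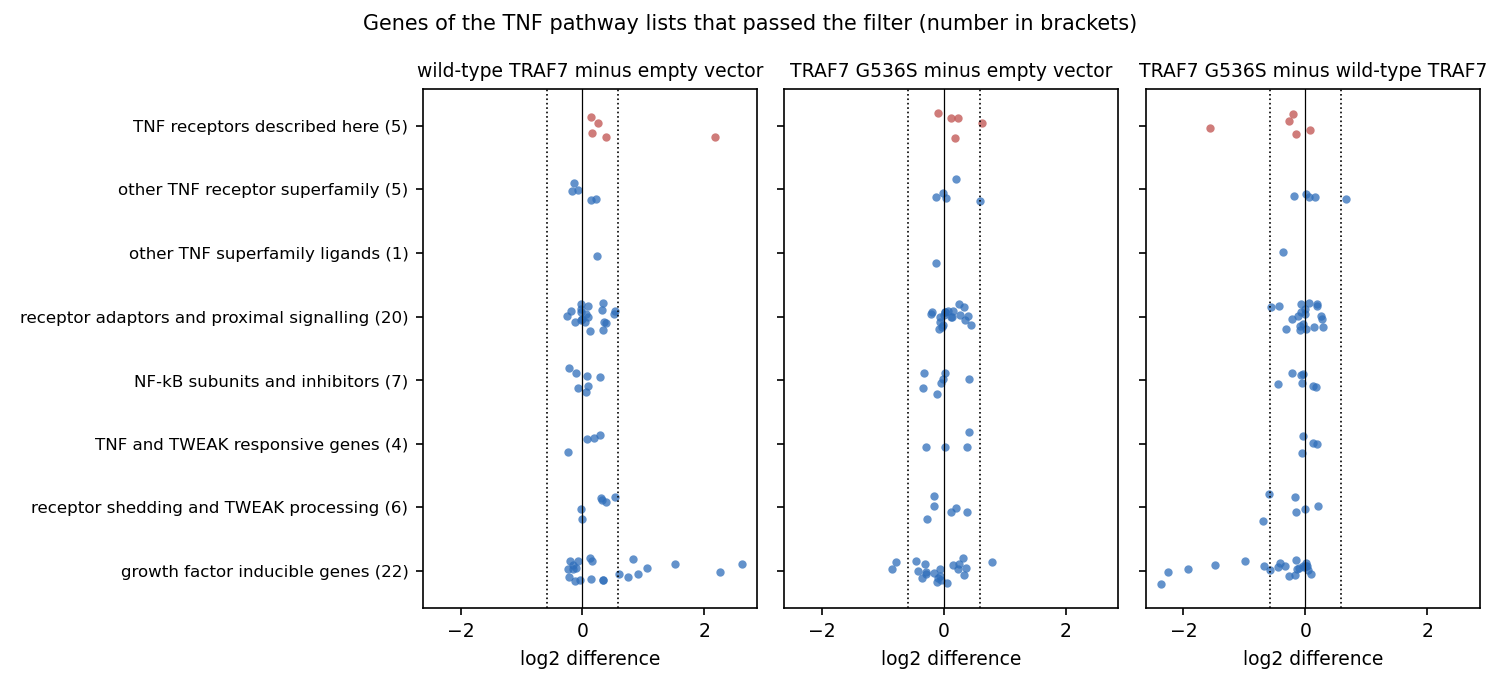
Log2 differences (horizontal axes) in the 3 comparisons for the genes past the filter, 1 point per gene, in the 5 TNF receptors described here (red) and 7 pathway lists (blue, number of genes in brackets); dotted lines mark 1.5-fold and vertical scatter within a row has no meaning. TNFRSF12A, at 2.18 and -1.56, lies far from the rest of the receptors, adaptors and NF-kB genes, and RHOB, at 2.61, leads the growth factor inducible genes.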

How the data were processed

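RNA of 3 HEK293T lines was measured on Affymetrix arrays, 1 per group. The deposited values are log2 intensities for 53617 probe sets, which the authors made with RMA (background correction, normalization between arrays and probe summary), per the submitters' processing notes; no software version or build was found in the sources used here. That the base is 2 was inferred from the highest value, 12.6, which is too high for a natural log of a 16-bit scanner reading. The annotation names 1 gene for 23871 probe sets and several for 1842; symbols were updated through Entrez IDs in a RefSeq table.

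The members, lists and rules were chosen with earlier results of these data known. Genes named are the 10 members, TRAF7, list genes past the filter at least 1.5-fold apart in any comparison or otherwise the farthest apart, and the 10 nearest patterns; list genes named beside these, the neighbours and the printed sequences were chosen after their values were seen. No test was possible with 1 array per group. Alternatives were the mean of probe sets, quantile normalization and cyclic loess (limma 3.58.1, R 4.3.3), centring on the median, a floor at the 25th percentile (0.86), no filter and a filter at the 75th percentile (2.87). Other steps used Python 3.11.15, numpy 2.4.6, pandas 2.3.3 and matplotlib 3.10.9. On simulated data for wild type minus empty vector, known changes were put into some of 11198 genes, with the same random spread for every gene. The 1.5-fold call was made in the right direction for 46.3% of 67 genes changed 1.5-fold. It was made for 89.4% of 66 changed 2-fold and for all of 67 changed 4-fold. A change placed at the threshold is called about as often as not by construction. The simulation held no replicate error, so it checks the steps and not the arrays. Having 1 array a group limits the precision throughout.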

Additional observations from a re-analysis of the deposited data

How the results depend on the processing

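Over 5 alternative scalings and summaries, TNFRSF12A kept its direction in all 3 comparisons, ranging from 2.05 to 2.21 for wild type minus empty vector, from 0.46 to 0.65 for G536S minus empty vector and from -1.59 to -1.55 for G536S minus wild type. The number of members at least 1.5-fold higher with G536S than with the empty vector, 1, became 0 when the columns were quantile normalized and 0 when cyclic loess was applied; the cause was not tested. The other counts of members at least 1.5-fold apart were the same under each alternative, while the number in the order wild type, G536S, empty vector was 4, and 3 after either of those normalizations. No single member's difference moved by more than the robust spread of its comparison (0.23 to 0.28). That is a spread between genes and does not measure replicate error. Some alternatives, such as the mean of probe sets, changed few or none of the member values, so the check is weak. The median of the members for G536S minus empty vector was 0.12, and -0.01 under quantile normalization. Of 210 counts of the pathway lists, 209 were within 1.5 times of the value given, and the other changed by 1 gene. Most of these counts were 0 and stayed 0, so the agreement says little about the lists. Without the filter, the share of genes at least 1.5-fold apart was 3.64% in place of 7.22% for wild type minus empty vector. It was 4.12% in place of 8.15% for G536S minus empty vector and 2.04% in place of 3.98% for G536S minus wild type. The shares 2-fold apart were 0.478% in place of 0.956%, 0.598% in place of 1.2% and 0.268% in place of 0.536%. Genes below the filter added few calls. For wild type minus empty vector, 816 of all genes and 808 of those past the filter were 1.5-fold apart. Of the genes at least 1.5-fold apart with no filter, 75%, 74.1% and 54.4% lay on the higher side in the 3 comparisons, in the same order. These became 47.9%, 41.3% and 49.5% after quantile normalization, and 51.5%, 46.7% and 50.5% after cyclic loess. No paired analysis was possible because each group has 1 array. Each measured member has 1 probe set, so the mean of probe sets changed none of their values, and TNFRSF10A, TNFRSF19 and LTBR are limited by signal near background.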
